A study of Mus musculus with 6 samples.

Results

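The genes described here encode core proteins of the spliceosome and the regulators that bind pre-mRNA with it. They were taken by symbol, as those starting with Snrp, Sf3a, Sf3b, U2af, Hnrnp, Srsf and a digit, or Prpf and a digit. Of 16135 genes with reads in any library, 67 were chosen in this way, namely 12 Snrp, 9 Sf3, 3 U2af, 13 Prpf, 10 Srsf and 20 Hnrnp genes. All but Snrpn passed the filter on low counts, so 66 were tested. Snrpn was listed in a single library, CD115+Ly6C- replicate 2, at 0.02 FPKM (fragments scaled by gene length and by mapped fragments of the library).

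The study sequenced polyadenylated RNA of common dendritic cell progenitors, the marrow cells from which dendritic cells arise. The cells came from bone marrow of wildtype C57BL/6 mice aged 6 to 8 weeks, and no group carried a transgene or received a treatment that the labels mention. Flow sorting on CD115, the M-CSF receptor, and on Ly6C, a surface protein of monocyte-forming cells, gave 3 subsets with 2 libraries each, called CD115-Ly6C-, CD115+Ly6C+ and CD115+Ly6C-. No label tells whether the libraries of a subset are separate mice, pools or sorts, so every p below measures the spread between these libraries alone, and that spread may be technical. Each RNA sample is a bulk of sorted cells, in which fewer cells of a type and less RNA per cell cannot be told apart.

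Introns are removed from pre-mRNA by the spliceosome, which assembles from small nuclear ribonucleoproteins (snRNPs). The U1 snRNP marks the start of an intron, U2AF and the U2 snRNP with its SF3A and SF3B complexes mark its end and branch point, and the U4/U6.U5 tri-snRNP then builds the catalytic centre, with Prpf8 at its core. SR proteins (Srsf genes) mostly promote the use of the exons they bind, hnRNP proteins often oppose it, and the balance between them sets which exons a cell keeps. In lymphocytes the best known case is Ptprc, the CD45 gene, whose variable exons are silenced by Hnrnpll and Hnrnpl.

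The libraries held 17961541 to 19450329 expected counts. All 8 marker genes set for common dendritic cell progenitors, Flt3, Kit, Csf1r and Irf8 among them, were listed in all 6 libraries. Their levels were not alike, with 3 called higher and 4 lower in CD115-Ly6C- than in CD115+Ly6C+, beside 39.3% of all genes called. Flt3 stood at 356 and 323 FPKM in CD115-Ly6C- and 102 and 91.1 FPKM in CD115+Ly6C+, and Csf1r at 62.8 and 74.2 FPKM and 142 and 133 FPKM. Genes of late neutrophil granules (S100a8, S100a9, Ltf and 8 more) summed to 784 and 357 FPKM in CD115-Ly6C-, 10122 and 9257 FPKM in CD115+Ly6C+, and 509 and 2034 FPKM in CD115+Ly6C-. All 11 of them were called lower in CD115-Ly6C- when set against CD115+Ly6C+, beside 19.2% of all genes. Of 19 proliferation genes, CD115-Ly6C- had 13 lower and 2 higher against CD115+Ly6C+, and 13 lower and 0 higher against CD115+Ly6C-. Of all genes, 39.3% and 15.2% were called in these comparisons. This proliferation list summed to 2824 and 3019 FPKM in CD115-Ly6C- libraries, 3626 and 3672 FPKM in CD115+Ly6C+ libraries, and 3820 and 3727 FPKM in CD115+Ly6C- libraries. Whether granule-rich cells or cycling cells had a part in any splicing gene result was not tested.

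Levels below are the deposited FPKM, which are per length. Log2 fold changes and p-values come from an edgeR quasi-likelihood fit to the counts of all 6 libraries with TMM scaling, adjusted over 12127 genes, and a gene was called at an adjusted p of at most 0.05. TMM scaling lowered CD115-Ly6C- against CD115+Ly6C+, so that the median log2 fold change over all genes was 0.03 with TMM and 0.22 with library totals alone. FPKM carry no such scaling, and a fitted fold is therefore lower than the plain ratio of FPKM in this comparison. For CD115-Ly6C- against CD115+Ly6C- the medians were 0.02 and 0.14, and for CD115+Ly6C+ against CD115+Ly6C- they were -0.01 and -0.08.

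Summed over the splicing genes, deposited FPKM came to 9444 and 9113 in CD115-Ly6C- libraries, 9778 and 9425 in CD115+Ly6C+ libraries, and 9739 and 9593 in CD115+Ly6C- libraries, and CD115+Ly6C+ overlapped both other subsets. TMM-scaled sums averaged 8625 FPKM for CD115-Ly6C-, 10196 FPKM for CD115+Ly6C+ and 9790 FPKM for CD115+Ly6C-, with CD115+Ly6C+ the highest. Together they held 1.60% and 1.56% of all FPKM in CD115-Ly6C- libraries, 1.46% and 1.41% in CD115+Ly6C+ libraries, and 1.62% and 1.56% in CD115+Ly6C- libraries. By this share CD115+Ly6C+ was the lowest in both of its libraries, so the order of the subsets depends on the scale. The most abundant genes were Hnrnpf, Hnrnpk, Hnrnpa2b1 and Snrpb, with means over the 6 libraries of 909.8, 793, 669.8 and 633 FPKM. The median splicing gene stood at 83.9 FPKM, and the lowest after Snrpn, Prpf40b, at 1.61 FPKM. Libraries of the same subset lay close for these genes, with a median absolute log2 difference of 0.12 for the CD115-Ly6C- pair, 0.12 for the CD115+Ly6C+ pair and 0.14 for the CD115+Ly6C- pair, against 0.17, 0.20 and 0.19 over all genes tested (TMM-scaled CPM plus 0.5).

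The subsets differed most between CD115-Ly6C- and CD115+Ly6C+. There CD115-Ly6C- had 8 splicing genes higher and 23 lower, 47% of the 66 tested, beside 39.3% of all genes (20.1% higher and 19.2% lower). DESeq2 called 8 and 23 too, beside 40.7% of all genes (19.8% higher and 20.9% lower). With library totals in place of TMM the split was 14 higher and 14 lower, beside 41.4% of all genes (28.9% higher and 12.5% lower). The 23 genes lower in CD115-Ly6C- included 9 of the 11 tested Snrp genes, which encode snRNP proteins, the SR protein genes Srsf1, Srsf2, Srsf3 and Srsf9 and the hnRNP genes Hnrnpll, Hnrnpab and Hnrnpu. The genes higher in it included the U2 and tri-snRNP proteins Sf3a1, Sf3a2, Sf3b3 and Prpf8, the large U2AF subunit U2af2, and Srsf5. Between CD115+Ly6C+ and CD115+Ly6C- only 4 genes were called, 6.06% beside 9.6% of all genes. Between CD115-Ly6C- and CD115+Ly6C- only 3 were, 4.55% beside 15.2% of all genes.

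**Figure D1:**
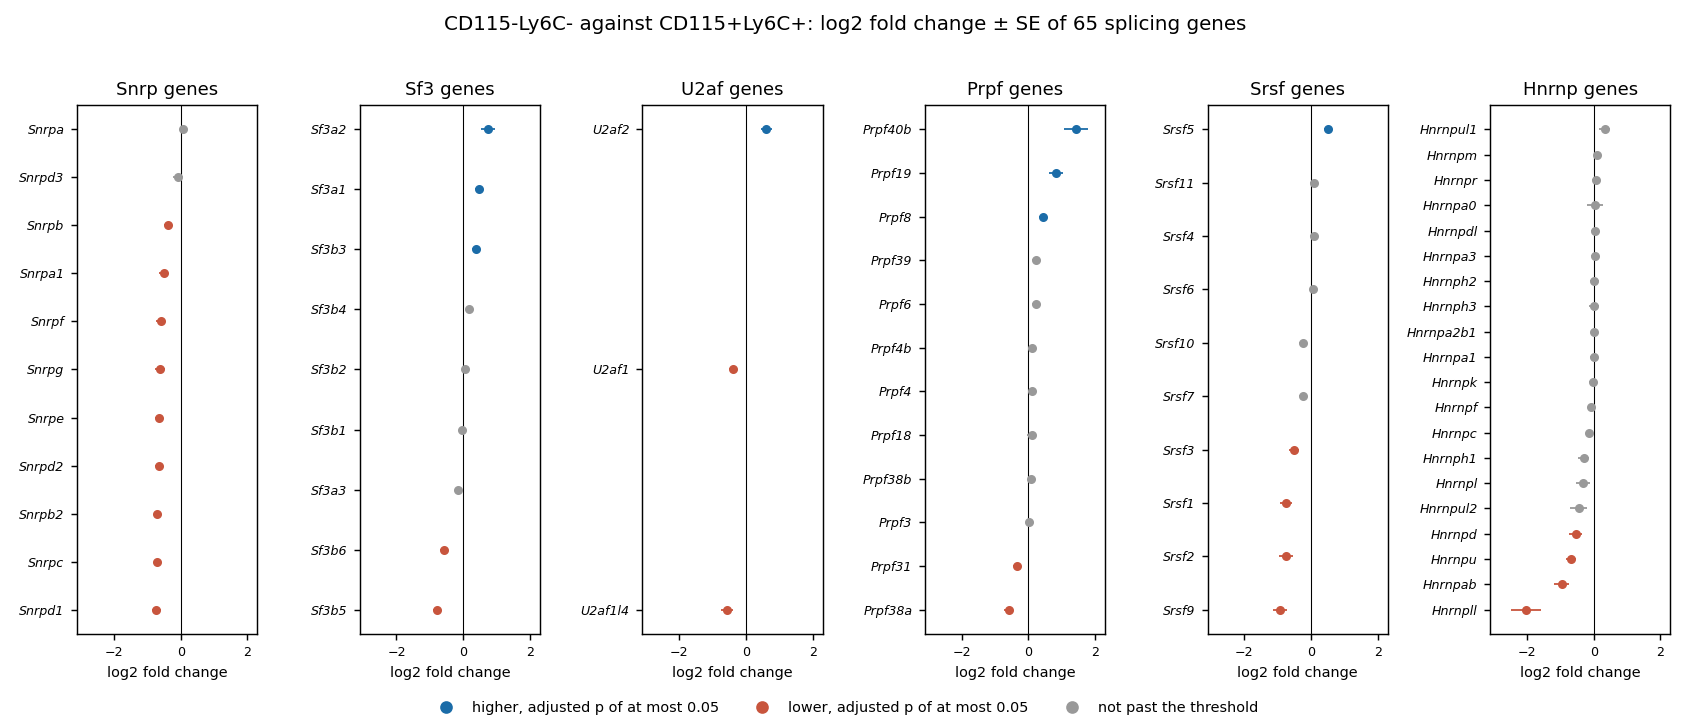
Log2 fold change (horizontal axis, points, with its SE as a bar) of CD115-Ly6C- against CD115+Ly6C+ for 65 of the tested splicing genes, by family and in order of size, from 2 libraries a subset with TMM scaling. Blue marks the 8 genes higher and red the 23 lower at an edgeR adjusted p of at most 0.05, and 9 of 11 Snrp genes are red, of which 1 stays lower and Snrpd3 turns higher when the length trend of each library is removed.

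Promoter sequences are shown for 3 genes lower and 3 genes higher in CD115-Ly6C- than CD115+Ly6C+, to set genes of opposite direction side by side. They were taken from the called genes in order of adjusted p. Each has a single entry in the RefSeq table of GRCm38.p6, which starts within 5 bases of the gene's 5′ end. Genes were also passed over by their location in the genome, so a called gene with a smaller adjusted p can be absent. Each line runs 5′ to 3′ over the 250 bases before the transcription start, and capitals mark the letters of a motif on either strand. The CCAAT box was searched as CCAAT. The letters of the GC box were GGGCGG. ETS factors, which bind many promoters of widely used genes, were searched as CCGGAAG. An E box was read as CACGTG. For the TATA box the letters were TATAAA.
Snrpb2 promoter, chr2:143062819-143063068, plus strand: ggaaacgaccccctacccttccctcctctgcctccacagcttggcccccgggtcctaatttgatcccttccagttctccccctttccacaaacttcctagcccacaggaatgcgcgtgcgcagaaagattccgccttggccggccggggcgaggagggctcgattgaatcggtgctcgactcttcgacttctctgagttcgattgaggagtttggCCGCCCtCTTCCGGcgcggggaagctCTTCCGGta
Sf3b6 promoter, chr12:4817358-4817607, plus strand: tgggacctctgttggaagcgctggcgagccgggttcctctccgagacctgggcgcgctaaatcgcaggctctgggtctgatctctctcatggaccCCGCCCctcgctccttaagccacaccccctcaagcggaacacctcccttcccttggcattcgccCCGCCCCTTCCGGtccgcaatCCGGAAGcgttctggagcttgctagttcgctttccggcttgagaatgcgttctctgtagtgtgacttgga
Snrpe promoter, chr1:133610281-133610530, minus strand: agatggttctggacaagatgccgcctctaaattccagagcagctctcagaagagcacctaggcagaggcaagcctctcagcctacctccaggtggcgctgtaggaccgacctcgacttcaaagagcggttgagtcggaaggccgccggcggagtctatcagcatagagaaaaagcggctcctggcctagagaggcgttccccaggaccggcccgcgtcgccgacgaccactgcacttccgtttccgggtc
Srsf5 promoter, chr12:80945249-80945498, plus strand: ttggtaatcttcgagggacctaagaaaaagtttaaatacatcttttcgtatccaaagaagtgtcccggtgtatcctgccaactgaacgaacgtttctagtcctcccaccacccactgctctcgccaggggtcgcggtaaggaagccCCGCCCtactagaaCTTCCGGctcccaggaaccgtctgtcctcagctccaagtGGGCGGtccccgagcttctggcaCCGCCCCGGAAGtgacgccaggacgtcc
Sf3a1 promoter, chr11:4160104-4160353, plus strand: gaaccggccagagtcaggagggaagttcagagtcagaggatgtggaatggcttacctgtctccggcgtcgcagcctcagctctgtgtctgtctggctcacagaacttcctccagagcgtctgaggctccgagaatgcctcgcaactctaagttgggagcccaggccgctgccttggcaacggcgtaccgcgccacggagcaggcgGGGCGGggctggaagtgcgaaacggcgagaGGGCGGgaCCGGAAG
Sf3a2 promoter, chr10:80798485-80798734, plus strand: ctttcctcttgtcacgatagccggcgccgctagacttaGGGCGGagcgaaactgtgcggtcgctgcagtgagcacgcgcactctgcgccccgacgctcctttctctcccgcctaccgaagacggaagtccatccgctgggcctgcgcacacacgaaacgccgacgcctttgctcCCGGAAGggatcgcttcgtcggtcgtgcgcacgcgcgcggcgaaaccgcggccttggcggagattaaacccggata
The first 3 belong to genes that were lower and the last 3 to genes that were higher. In Srsf5 a GC box match overlaps an ETS match, and in Sf3b6 they touch. The ETS letters occur in 5 of these 6 promoters, 2 times each in Snrpb2, Sf3b6 and Srsf5, and so on both sides of the comparison. No motif searched was found in the Snrpe window, which says only that these letters are not in it. A promoter was listed for 58 of the 67 genes, and 17 of those (29.3%) hold the ETS letters, beside 14.7% of the 9416 tested genes with a promoter and 7.1% of all 27025 promoters. They stand in 5 of 7 promoters of genes higher in CD115-Ly6C- and in 5 of 19 of genes lower in it. The GC box is in 65.5% of the splicing gene promoters and 59.0% of those of tested genes, the CCAAT box in 48.3% and 37.4%, the E box in 8.6% and 8.5%, and the TATA box in 8.6% and 6.2%. A match is a description of the sequence, not a site of binding.

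The Snrp genes encode the Sm proteins, which form a ring on spliceosomal RNAs, and proteins particular to the U1 and U2 snRNPs. In CD115-Ly6C- against CD115+Ly6C+, 0 of the 11 tested were higher and 9 lower, 81.8% beside 39.3% of all genes. The median log2 fold change was -0.62, beside 0.03 over all genes. With library totals 6 were lower, 54.5% beside 41.4% of all genes (12.5% lower), with a median of -0.43 beside 0.22 over all genes. With the length trend of each library removed 1 was lower and 1 higher, 18.2% beside 31.7% of all genes, with a median of -0.05. The lower genes were Snrpb2, Snrpc, Snrpa1 and the Sm genes Snrpb, Snrpd1, Snrpd2, Snrpe, Snrpf and Snrpg.

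Snrpb2 (Entrez gene 20639, chromosome 2, 143063069 to 143072052 of GRCm38.p6) encodes the U2 snRNP protein B″. It stood at 93.4 and 89.7 FPKM in CD115-Ly6C-, 123 and 136 FPKM in CD115+Ly6C+, and 102 and 106 FPKM in CD115+Ly6C-. Both CD115-Ly6C- libraries lay below the other 4, and both CD115+Ly6C+ libraries above them. Snrpb2 had a log2 fold change in CD115-Ly6C- against CD115+Ly6C+ of -0.70 (SE 0.11, edgeR adjusted p = 0.00143), 1.62-fold lower, and -0.40 with the length trend removed (edgeR adjusted p = 0.0183). Of the 9 lower Snrp genes it was the only one called after that removal.

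Snrpd2 (Entrez gene 107686, chromosome 7, 19149445 to 19152734) encodes the Sm protein D2 and had the smallest p among the splicing genes. It stood at 332 and 311 FPKM in CD115-Ly6C-, 447 and 439 FPKM in CD115+Ly6C+, and 406 and 391 FPKM in CD115+Ly6C-, so no pair of subsets overlapped. The log2 fold change was -0.66 (SE 0.10, edgeR adjusted p = 0.00124) in CD115-Ly6C- against CD115+Ly6C+ and -0.41 (SE 0.10, edgeR adjusted p = 0.0265) against CD115+Ly6C-. With the length trend removed these were -0.01 and -0.21 (edgeR adjusted p = 0.973 and 0.218). Part of its counts were fractional, since RSEM shares reads between similar sequences by estimation, so its level is uncertain to that extent.

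Snrpe (Entrez gene 20643, chromosome 1, 133603871 to 133610280), another Sm protein gene, stood at 180 and 162 FPKM in CD115-Ly6C-, 247 and 222 FPKM in CD115+Ly6C+, and 162 and 190 FPKM in CD115+Ly6C-. Both CD115+Ly6C+ libraries were above the rest, while the other subsets overlapped. Its log2 fold change was -0.65 (SE 0.13, edgeR adjusted p = 0.00498) in CD115-Ly6C- against CD115+Ly6C+ and 0.50 (SE 0.13, edgeR adjusted p = 0.0463) in CD115+Ly6C+ against CD115+Ly6C-. With the length trend removed both values were near 0, at 0.0007 and 0.06 (edgeR adjusted p = 0.997 and 0.818). At 508 bases, Snrpe and Snrpd2 were among the shortest of the splicing genes.

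The remaining lower Sm genes were highest in CD115+Ly6C+, in both libraries. Snrpb, the most abundant Snrp gene, stood at 593 and 587 FPKM in CD115-Ly6C-, 694 and 661 FPKM in CD115+Ly6C+, and 619 and 645 FPKM in CD115+Ly6C-. Snrpg stood at 421 and 367 FPKM in CD115-Ly6C-, 584 and 477 FPKM in CD115+Ly6C+, and 349 and 446 FPKM in CD115+Ly6C-. The log2 fold changes of Snrpb, Snrpd1, Snrpf and Snrpg in CD115-Ly6C- against CD115+Ly6C+ ran between -0.73 and -0.39 (edgeR adjusted p = 0.00287 to 0.0131). Snrpc, a U1 protein gene, had a log2 fold change of -0.70 (SE 0.11, edgeR adjusted p = 0.00134), with 143 and 147 FPKM in CD115-Ly6C- against 201 and 213 FPKM in CD115+Ly6C+. Snrpa1, which encodes the U2 protein A′, was lower in CD115-Ly6C- than in both other subsets. It stood at 79.8 and 90.5 FPKM in CD115-Ly6C-, 103 and 109 FPKM in CD115+Ly6C+, and 124 and 108 FPKM in CD115+Ly6C-, and the CD115+ subsets overlapped. The fitted log2 fold change was -0.51 (edgeR adjusted p = 0.0127) against CD115+Ly6C+ and -0.56 (edgeR adjusted p = 0.0214) against CD115+Ly6C-. Leaving out CD115-Ly6C- replicate 1 gave edgeR adjusted p of 0.101 and 0.169 for these.

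Snrpa, the gene of the U1 protein A, and Snrpd3, an Sm gene, were the Snrp genes not called. Snrpa stood at 143 and 131 FPKM in CD115-Ly6C- and 119 and 108 FPKM in CD115+Ly6C+, with a log2 fold change of 0.07 (edgeR adjusted p = 0.614). Snrpd3, named after its values were seen, stood at 111 and 91.2 FPKM in CD115-Ly6C- and 93.6 and 93.1 FPKM in CD115+Ly6C+. This gave a log2 fold change of -0.08 (edgeR adjusted p = 0.685), and 0.51 (edgeR adjusted p = 0.0173) with the length trend removed.

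Length went with direction in all genes, not in the splicing genes alone. Across the 12127 genes, log2 fold change of CD115-Ly6C- against CD115+Ly6C+ and deposited gene length had a Spearman correlation of 0.33, a description over genes, which are not independent replicates. Genes under 1 kb had a median log2 fold change of -0.54 and genes over 4 kb one of 0.30. Among the 66 splicing genes this correlation was 0.47. Median lengths were 3762 bases for the 8 higher genes, 1162 bases for the 23 lower genes and 2832 bases for the rest. The Snrp genes, with a median of 853 bases, are the shortest family, and a list median of -0.62 stands beside -0.54 for all genes under 1 kb.

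A trend of log2 count on length was then taken out of each library, and the fit repeated. Of the 66 genes, 5 were then higher and 9 lower in CD115-Ly6C- than CD115+Ly6C+, 21.2% beside 31.7% of all genes (15.5% higher and 16.3% lower). The higher genes were Prpf40b, Sf3a2, Srsf5, U2af2 and Snrpd3. The lower ones were Hnrnpll, Srsf1, Hnrnpu, Hnrnpab, Hnrnpd, Hnrnpul2, Srsf3, Prpf31 and Snrpb2. Hnrnpd was named after its values were seen. The correlation with length became 0.01 over all genes and -0.15 over the splicing genes. Whether the trend comes from RNA quality, library preparation or the cells was not tested.

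**Figure D2:**
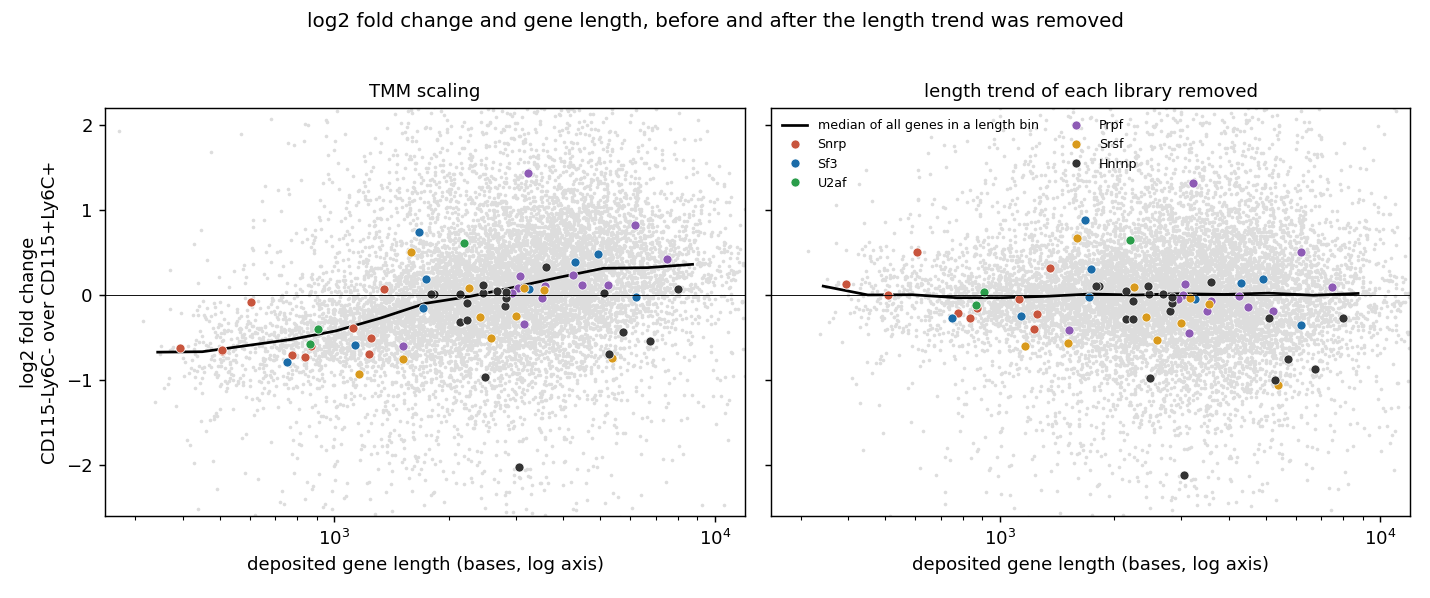
Log2 fold change of CD115-Ly6C- against CD115+Ly6C+ (vertical axis) by deposited gene length in bases (log axis) for all tested genes in grey and the splicing genes by family, with TMM scaling on the left and after the length trend of each library was removed on the right. The black line is the median of all genes in a length bin, and genes beyond the axis limits are not drawn. On the left most red Snrp points lie below 0 with the low, short-gene end of the line, and on the right they lie on both sides of 0.

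U2AF binds the end of the intron, its large subunit U2af2 at the pyrimidine tract and its small subunit U2af1 at the AG. The subunits were called in opposite directions between CD115-Ly6C- and CD115+Ly6C+. U2af2 (Entrez gene 22185, chromosome 7, 5060885 to 5079945) stood at 36.8 and 29.9 FPKM in CD115-Ly6C-, 19.6 and 18.5 FPKM in CD115+Ly6C+, and 19.3 and 25.02 FPKM in CD115+Ly6C-. Both CD115-Ly6C- libraries were above the other 4, and the CD115+ subsets overlapped. The log2 fold change was 0.61 (SE 0.16, edgeR adjusted p = 0.0159), and 0.64 with the length trend removed (edgeR adjusted p = 0.0132). U2af1 (Entrez gene 108121, chromosome 17, 31647081 to 31659148) stood at 258 and 249 FPKM in CD115-Ly6C-, 295 and 289 FPKM in CD115+Ly6C+, and 334 and 289 FPKM in CD115+Ly6C-. Its log2 fold change was -0.40 (SE 0.11, edgeR adjusted p = 0.0196) against CD115+Ly6C+ and -0.41 (SE 0.11, edgeR adjusted p = 0.0376) against CD115+Ly6C-. With the length trend removed, U2af1 had values of 0.04 and -0.26 (edgeR adjusted p = 0.845 and 0.173), and part of its counts were fractional.

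U2af2 has 2193 bases and U2af1 906. The ratio of U2af2 to U2af1 FPKM within a library does not depend on how libraries are scaled, but still holds the length trend. It was 0.143 and 0.120 in CD115-Ly6C- libraries, 0.0662 and 0.0640 in CD115+Ly6C+ libraries, and 0.0576 and 0.0864 in CD115+Ly6C- libraries. The mean ratio in CD115-Ly6C- was 2.01 times that in CD115+Ly6C+. Leaving out any 1 library of these subsets took the call of U2af1 against CD115+Ly6C+ away, with edgeR adjusted p between 0.0625 and 0.0963. The call of U2af2 was lost when CD115-Ly6C- replicate 1 was left out (edgeR adjusted p = 0.0994), and likewise for each CD115+Ly6C+ library (0.0523 and 0.0744). U2af1l4, a relative of U2af1, stood at 35.5 and 39.4 FPKM in CD115-Ly6C- and 41.2 and 56.2 FPKM in CD115+Ly6C+. The fitted log2 fold change was -0.57 (edgeR adjusted p = 0.0388). It was -0.12 (edgeR adjusted p = 0.662) with the length trend removed and -0.38 (edgeR adjusted p = 0.121) with library totals. U2af1l4 overlaps Psenen, from which its reads may not have been told apart since no source used here gives the strand setting.

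The SF3A and SF3B complexes hold U2 at the branch point. Of their 9 genes, 3 were higher (Sf3a1, Sf3a2, Sf3b3) and 2 lower (Sf3b5, Sf3b6) in CD115-Ly6C- than in CD115+Ly6C+, with a median log2 fold change of 0.07. That was 55.6% called, beside 39.3% of all genes. Sf3b5, which encodes a small SF3B protein (Entrez gene 66125, chromosome 10, 13008450 to 13009183), stood at 135 and 141 FPKM in CD115-Ly6C-, 197 and 218 FPKM in CD115+Ly6C+, and 159 and 179 FPKM in CD115+Ly6C-. The subsets did not overlap, and the log2 fold change was -0.78 (SE 0.12, edgeR adjusted p = 0.0014). Sf3b6 (Entrez gene 66055, chromosome 12, 4817608 to 4827659), whose protein p14 contacts the branch point adenosine, stood at 145 and 126 FPKM in CD115-Ly6C-, 173 and 183 FPKM in CD115+Ly6C+, and 131 and 144 FPKM in CD115+Ly6C-. Both CD115+Ly6C+ libraries stood above the other 4. Sf3b6 had a log2 fold change of -0.59 (SE 0.11, edgeR adjusted p = 0.00392) in CD115-Ly6C- against CD115+Ly6C+. With the length trend removed, Sf3b5 and Sf3b6 had log2 fold changes of -0.28 and -0.25 (edgeR adjusted p = 0.097 and 0.113).

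Sf3b3 (Entrez gene 101943, chromosome 8, 110810491 to 110846806), the scaffold that packs against Sf3b1, went the other way. It stood at 126 and 122 FPKM in CD115-Ly6C-, 90.3 and 76.4 FPKM in CD115+Ly6C+, and 122 and 112 FPKM in CD115+Ly6C-. Both CD115+Ly6C+ libraries were the lowest. The log2 fold change was 0.38 (SE 0.11, edgeR adjusted p = 0.0265) in CD115-Ly6C- against CD115+Ly6C+, and 0.14 (edgeR adjusted p = 0.378) with the length trend removed. Within a library, Sf3b3 stood to Sf3b5 in FPKM as 0.936 and 0.868 in CD115-Ly6C- libraries, 0.459 and 0.351 in CD115+Ly6C+ libraries, and 0.768 and 0.625 in CD115+Ly6C- libraries. The length trend is not removed from this ratio, and Sf3b3 has 4299 bases and Sf3b5 750. Sf3b1, which encodes the large subunit mutated in human myelodysplasia, stood at 131 and 139 FPKM in CD115-Ly6C- and 119 and 122 FPKM in CD115+Ly6C+. Its log2 fold change was -0.03 (SE 0.11, edgeR adjusted p = 0.855), and that of Sf3b2 was 0.07 (SE 0.10, edgeR adjusted p = 0.632).

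Of the SF3A genes, Sf3a1 (Entrez gene 67465, chromosome 11, 4160354 to 4182541) stood at 42.8 and 35.1 FPKM in CD115-Ly6C-, 26.5 and 22.4 FPKM in CD115+Ly6C+, and 30.9 and 31.9 FPKM in CD115+Ly6C-. Sf3a2 (Entrez gene 20222, chromosome 10, 80798735 to 80804922) stood at 18.8 and 14.7 FPKM in CD115-Ly6C-, 7.83 and 9.72 FPKM in CD115+Ly6C+, and 10.1 and 12.4 FPKM in CD115+Ly6C-. For both, the CD115-Ly6C- libraries were the highest in FPKM and the CD115+Ly6C+ libraries the lowest, with no overlap of subsets. After TMM scaling, the CD115+ subsets overlapped for Sf3a2. In CD115-Ly6C- against CD115+Ly6C+, Sf3a1 and Sf3a2 had log2 fold changes of 0.48 (SE 0.12, edgeR adjusted p = 0.016) and 0.74 (SE 0.21, edgeR adjusted p = 0.0212). With the length trend removed, Sf3a1 had 0.19 (edgeR adjusted p = 0.243) and Sf3a2 had 0.87 (edgeR adjusted p = 0.0101). Sf3a1, Sf3a2 and Sf3b3 all lost their calls without CD115-Ly6C- replicate 1 (edgeR adjusted p = 0.12, 0.122 and 0.103).

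The Prpf genes encode proteins of the tri-snRNP, of the Prp19 complex and of neighbouring steps. Of 13 genes, 3 were higher (Prpf40b, Prpf19, Prpf8) and 2 lower (Prpf38a, Prpf31) in CD115-Ly6C- than in CD115+Ly6C+, 38.5% beside 39.3% of all genes. Prpf8 (Entrez gene 192159, chromosome 11, 75486777 to 75509447), the U5 protein at the heart of the spliceosome, stood at 25.7 and 24.1 FPKM in CD115-Ly6C-, 18.1 and 14.5 FPKM in CD115+Ly6C+, and 22.7 and 21.7 FPKM in CD115+Ly6C-. In FPKM the subsets did not overlap, while after TMM scaling CD115-Ly6C- and CD115+Ly6C- did. In CD115-Ly6C- against CD115+Ly6C+ the log2 fold change was 0.42 (SE 0.12, edgeR adjusted p = 0.0223), or 0.09 (edgeR adjusted p = 0.526) with the length trend removed. Prpf40b (Entrez gene 54614, chromosome 15, 99295076 to 99317018), which encodes a protein linked to the U1 snRNP, stood at 3.30 and 2.16 FPKM in CD115-Ly6C-, 1.01 and 0.73 FPKM in CD115+Ly6C+, and 1.02 and 1.42 FPKM in CD115+Ly6C-. It had the largest positive log2 fold change of the splicing genes, 1.43 (SE 0.36, edgeR adjusted p = 0.0138), from low levels, and its CD115-Ly6C- libraries were both above the other 4. Prpf19, a ubiquitin ligase, stood at 2.87 and 2.49 FPKM in CD115-Ly6C-, 1.51 and 1.15 FPKM in CD115+Ly6C+, and 1.88 and 2.19 FPKM in CD115+Ly6C-. Its log2 fold change was 0.82 (edgeR adjusted p = 0.0171), and 0.50 (edgeR adjusted p = 0.0914) with the length trend removed. Prpf8, Prpf19 and Prpf40b lost their calls without CD115-Ly6C- replicate 1 (edgeR adjusted p = 0.0993, 0.0848 and 0.0952) or CD115+Ly6C+ replicate 2 (0.151, 0.0942 and 0.0823).

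Prpf38a, the most abundant Prpf gene, stood at 60.2 and 74.2 FPKM in CD115-Ly6C-, 80.9 and 97.2 FPKM in CD115+Ly6C+, and 86.5 and 84.0 FPKM in CD115+Ly6C-. Both CD115-Ly6C- libraries were the lowest. The fitted log2 fold change was -0.60 (SE 0.15, edgeR adjusted p = 0.0131) against CD115+Ly6C+ and -0.46 (edgeR adjusted p = 0.0688) against CD115+Ly6C-. With the length trend removed it was -0.41 (edgeR adjusted p = 0.056) against CD115+Ly6C+. Prpf31, a U4/U6 protein gene, stood at 49.0 and 52.8 FPKM in CD115-Ly6C- and 54.1 and 59.1 FPKM in CD115+Ly6C+, and its log2 fold change of -0.35 (edgeR adjusted p = 0.0401) was no longer called without any 1 of the 6 libraries. Of the Prpf genes not called, 7 had log2 fold changes between 0.03 and 0.24.

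Of 10 SR protein genes, 4 were lower (Srsf1, Srsf2, Srsf3, Srsf9) and 1 higher (Srsf5) in CD115-Ly6C- than in CD115+Ly6C+, with a median log2 fold change of -0.25. That was 50% called, beside 39.3% of all genes. Srsf5 (Entrez gene 20384, chromosome 12, 80945495 to 80950507) stood at 247 and 235 FPKM in CD115-Ly6C-, 158 and 140 FPKM in CD115+Ly6C+, and 192 and 184 FPKM in CD115+Ly6C-. The 3 subsets were fully apart, and part of the Srsf5 counts were fractional. A log2 fold change of 0.50 (SE 0.10, edgeR adjusted p = 0.00576) was called in each of the 16 further settings, with the length trend removed (0.66, edgeR adjusted p = 0.00243) and without any 1 library (largest edgeR adjusted p = 0.0468). Srsf3 (Entrez gene 20383, chromosome 17, 29032660 to 29043372), which like Srsf5 promotes exon use, stood at 274 and 224 FPKM in CD115-Ly6C-, 349 and 269 FPKM in CD115+Ly6C+, and 230 and 260 FPKM in CD115+Ly6C-. In FPKM the libraries of CD115-Ly6C- and CD115+Ly6C+ overlapped. After TMM scaling, Srsf3 had a log2 fold change of -0.50 (SE 0.15, edgeR adjusted p = 0.0244), and -0.31 (edgeR adjusted p = 0.134) with library totals.

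Srsf5 and Srsf3 therefore stood in different proportions. Within a library the FPKM of Srsf5 over that of Srsf3 was 0.901 and 1.05 in CD115-Ly6C- libraries, 0.452 and 0.521 in CD115+Ly6C+ libraries, and 0.836 and 0.705 in CD115+Ly6C- libraries. CD115-Ly6C- had the highest ratios and CD115+Ly6C+ the lowest, without overlap. As a pair that did not part, Hnrnpa1 over Hnrnpa2b1 was 0.480 and 0.578 in CD115-Ly6C- libraries, 0.502 and 0.557 in CD115+Ly6C+ libraries, and 0.606 and 0.544 in CD115+Ly6C- libraries. The pairs were chosen after the values were seen and the length trend was not removed, so these ratios are descriptions.

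**Figure D3:**
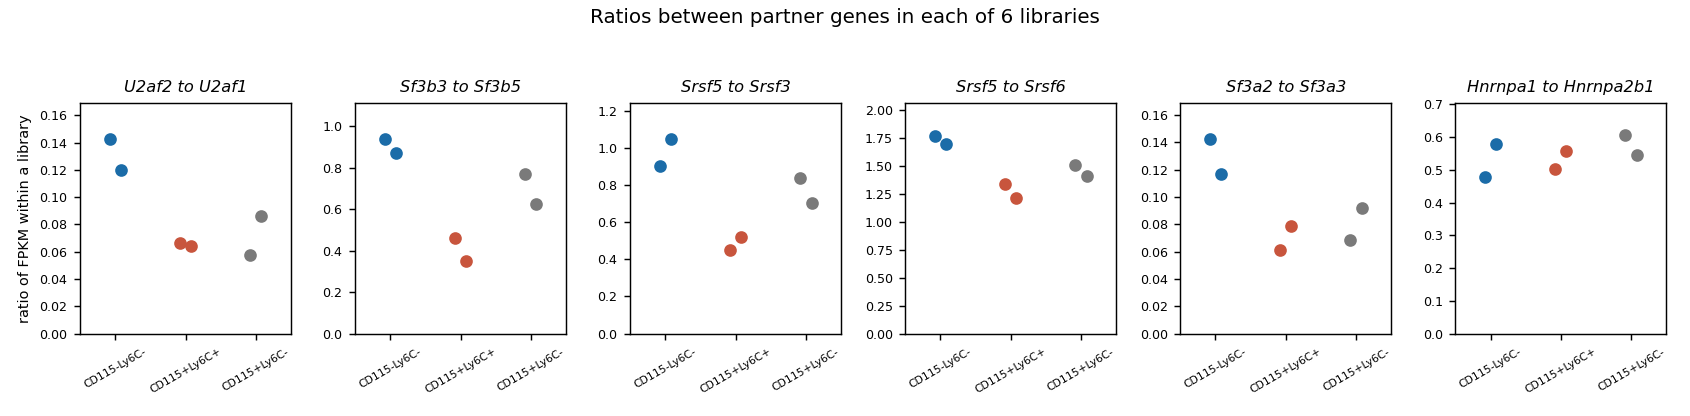
FPKM ratio of partner genes within each library (vertical axis, starting at 0, with a scale of its own in each panel), with replicate 1 on the left and 2 on the right of each subset. U2af2 to U2af1 is 0.143 and 0.120 for CD115-Ly6C- libraries and 0.0662 and 0.0640 for CD115+Ly6C+ libraries, and 5 of the 6 ratios are apart between these subsets while Hnrnpa1 to Hnrnpa2b1 overlaps. The pairs were chosen after the values were seen, so the number apart is a description and not a result. U2af2, Sf3b3 and Srsf5 had been called higher, and U2af1, Sf3b5 and Srsf3 lower. The length trend is not removed from these ratios.

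Srsf2, which binds exons and is mutated in human myeloid neoplasms (Entrez gene 20382, chromosome 11, 116849897 to 116853675), was among the few genes called between the CD115+ subsets. It stood at 145 and 105 FPKM in CD115-Ly6C-, 192 and 140 FPKM in CD115+Ly6C+, and 123 and 93.5 FPKM in CD115+Ly6C-. In each subset replicate 1 was well above replicate 2, and in FPKM only CD115+Ly6C+ and CD115+Ly6C- did not overlap. The log2 fold change was 0.89 (SE 0.22, edgeR adjusted p = 0.0394) in CD115+Ly6C+ against CD115+Ly6C- and -0.75 (SE 0.22, edgeR adjusted p = 0.0244) in CD115-Ly6C- against CD115+Ly6C+. Srsf2 overlaps Mfsd11. Srsf1, the founding SR protein, stood at 26.2 and 18.8 FPKM in CD115-Ly6C-, 35.9 and 29.8 FPKM in CD115+Ly6C+, and 26.4 and 21.2 FPKM in CD115+Ly6C-, with a log2 fold change of -0.74 (SE 0.17, edgeR adjusted p = 0.0106) in CD115-Ly6C- against CD115+Ly6C+. Srsf9, the lowest of the family, stood at 7.17 and 6.84 FPKM in CD115-Ly6C-, 11.8 and 11.5 FPKM in CD115+Ly6C+, and 7.56 and 8.18 FPKM in CD115+Ly6C-. In CD115-Ly6C- against CD115+Ly6C+ its log2 fold change was -0.93 (SE 0.22, edgeR adjusted p = 0.0101), and -0.61 (edgeR adjusted p = 0.059) with the length trend removed. Srsf9 overlaps Gatc, which stood at 34.3 and 33.4 FPKM in CD115-Ly6C- and 29.7 and 26.5 FPKM in CD115+Ly6C+. The most abundant SR gene, Srsf7, had 425 and 425 FPKM in CD115-Ly6C- and 429 and 483 FPKM in CD115+Ly6C+ (log2 fold change -0.26, edgeR adjusted p = 0.0973).

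Of 20 hnRNP genes, 0 were higher and 4 lower in CD115-Ly6C- than CD115+Ly6C+, namely Hnrnpll, Hnrnpab, Hnrnpu and Hnrnpd, and the median was -0.01. That was 20% called, a smaller share than the 39.3% of all genes. With library totals 3 were lower and 2 higher, 25% beside 41.4% of all genes. Their median was then 0.18, beside 0.22 over all genes. The most abundant hnRNP genes differed little. Hnrnpf stood at 951 and 937 FPKM in CD115-Ly6C-, 872 and 886 FPKM in CD115+Ly6C+, and 897 and 915 FPKM in CD115+Ly6C-, with log2 fold changes between -0.09 and 0.03 over the 3 comparisons (edgeR adjusted p = 0.486 to 0.874). The log2 fold changes of Hnrnpk, Hnrnpa2b1 and Hnrnpa1 in CD115-Ly6C- against CD115+Ly6C+ were -0.03, 0.01 and 0.0047 (edgeR adjusted p = 0.838, 0.962 and 0.98). Their SEs of 0.10 to 0.12 leave small differences undetected. Hnrnpa1, Hnrnpf and Hnrnpk had fractional counts.

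Hnrnpll (Entrez gene 72692, chromosome 17, 80029487 to 80062268) had the largest differences of all splicing genes. Its protein represses the variable exons of CD45 in activated lymphocytes. It stood at 12.9 and 3.67 FPKM in CD115-Ly6C-, 30.1 and 28.3 FPKM in CD115+Ly6C+, and 6.26 and 4.29 FPKM in CD115+Ly6C-. Both CD115+Ly6C+ libraries were far above the other 4, and the other subsets overlapped. The log2 fold change was 2.54 (SE 0.46, edgeR adjusted p = 0.0154) in CD115+Ly6C+ against CD115+Ly6C-, 5.80-fold higher. For CD115-Ly6C- against CD115+Ly6C+ it was -2.02 (SE 0.45, edgeR adjusted p = 0.0083), 4.05-fold lower, and it was called in each of the 16 further settings. The CD115-Ly6C- libraries lay 1.72 apart on the log2 scale, the widest gap of any splicing gene in a subset. Against CD115+Ly6C-, the log2 fold change of CD115-Ly6C- was 0.52 (SE 0.45, edgeR adjusted p = 0.474). The call between the CD115+ subsets was lost without any 1 of their 4 libraries (edgeR adjusted p = 0.0516 to 0.0929). Granule genes summed to 784 and 357 FPKM in CD115-Ly6C-, 10122 and 9257 FPKM in CD115+Ly6C+, and 509 and 2034 FPKM in CD115+Ly6C-. Whether Hnrnpll levels go with granule-rich cells was not tested.

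Hnrnpl, the paralog of Hnrnpll, stood at 19.9 and 12.8 FPKM in CD115-Ly6C-, 20.1 and 15.4 FPKM in CD115+Ly6C+, and 11.6 and 13.1 FPKM in CD115+Ly6C-. Hnrnpl was named after its values were seen, for comparison with Hnrnpll, and was called in none of the 3 comparisons (edgeR adjusted p = 0.116 to 0.413). Hnrnpu (Entrez gene 51810, chromosome 1, 178321108 to 178338891), a nuclear matrix protein gene, stood at 33.8 and 26.8 FPKM in CD115-Ly6C-, 47.3 and 38.5 FPKM in CD115+Ly6C+, and 36.5 and 30.9 FPKM in CD115+Ly6C-. Its CD115+Ly6C+ libraries were the highest, and in FPKM the other subsets overlapped. The log2 fold change was -0.69 (SE 0.15, edgeR adjusted p = 0.00697), and -1.001 (edgeR adjusted p = 8.33e-04) with the length trend removed. Hnrnpu overlaps Cox20, from which its reads may not have been told apart. Cox20 stood at 97.31 and 96.55 FPKM in CD115-Ly6C-, 117 and 120 FPKM in CD115+Ly6C+, and 127 and 107 FPKM in CD115+Ly6C-. Hnrnpab, which binds AU-rich RNA, stood at 32.7 and 19.5 FPKM in CD115-Ly6C-, 51.7 and 37.0 FPKM in CD115+Ly6C+, and 27.4 and 25.4 FPKM in CD115+Ly6C-. The log2 fold change of Hnrnpab was -0.96 (SE 0.23, edgeR adjusted p = 0.0119). Hnrnpab overlaps Phykpl, which stood at 3.81 to 5.35 FPKM in the 6 libraries.

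**Figure D4:**
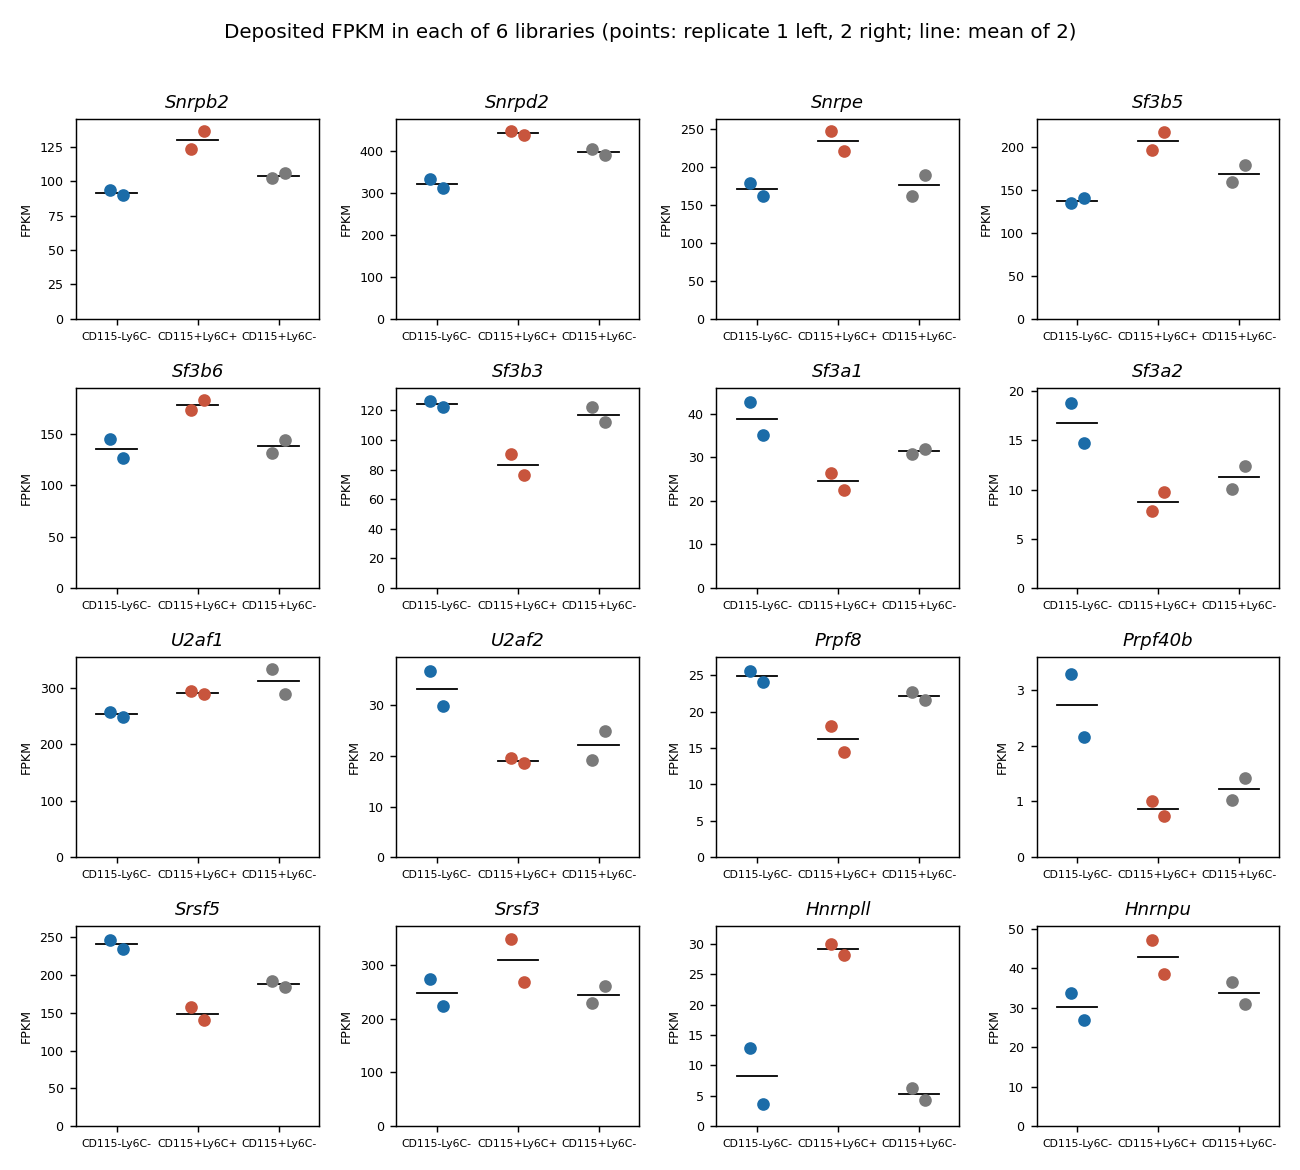
Deposited FPKM (vertical axis, starting at 0, with a scale of its own in each panel) of 16 splicing genes in the 6 libraries, with replicate 1 on the left and 2 on the right of each subset and a line at the mean. Snrpb2, Sf3b5 and Hnrnpll are highest in CD115+Ly6C+, Srsf5, U2af2 and Sf3a1 are highest in CD115-Ly6C-, and the CD115-Ly6C- libraries of Hnrnpll lie far apart at 12.9 and 3.67 FPKM.

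Few of these genes were called between CD115+Ly6C+ and CD115+Ly6C-, which with 2 libraries a subset does not show them to be alike. In CD115+Ly6C+ against CD115+Ly6C-, 4 of 66 were higher (Hnrnpll, Srsf2, Sf3b6, Snrpe) and 0 lower, 6.06% beside 9.6% of all genes (5.26% higher and 4.34% lower), and the median log2 fold change was -0.07. At an unadjusted p under 0.05 there were 24 of 66, beside 3383 of all 12127 genes, and DESeq2 called 13 higher and 2 lower, beside 14.9% of all genes (8.44% higher and 6.5% lower). With library totals 1 was higher and 2 were lower, beside 10.4% of all genes (4% higher and 6.41% lower). Of the 11 tested Snrp genes, 8 were above 0 and 3 below, with a median log2 fold change of 0.39, and -0.0024 with the length trend removed. Of 13 Prpf genes, 3 were above 0 and 10 below, with medians of -0.17 and -0.12. Sf3b6 had a log2 fold change of 0.45 (SE 0.11, edgeR adjusted p = 0.0409). All 4 calls were lost without any 1 of the 4 CD115+ libraries, and those of Sf3b6 and Snrpe also without either CD115-Ly6C- library (edgeR adjusted p for all 4 genes = 0.0516 to 0.24). Snrpd1, Snrpb2, Snrpc and Sf3b3 fell just outside the threshold, with log2 fold changes of 0.48, 0.39, 0.39 and -0.42 (edgeR adjusted p = 0.0505, 0.0526, 0.0529 and 0.0519). Log2 fold change and length had a Spearman correlation of -0.33 over all genes and -0.44 over the splicing genes, and with the length trend removed 3 were higher (Hnrnpll, Srsf1, Hnrnpu) and 0 lower, beside 5.86% of all genes (3.34% higher and 2.52% lower).

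For CD115-Ly6C- against CD115+Ly6C-, 0 of 66 genes were higher and 3 lower (Snrpa1, Snrpd2, U2af1), 4.55% beside 15.2% of all genes (8.43% higher and 6.78% lower), and the median log2 fold change was -0.14, beside 0.02 over all genes. Of the 66, 50 were below 0. At an unadjusted p under 0.05 there were 16 of 66, beside 3902 of all 12127 genes, and DESeq2 called 0 higher and 6 lower, beside 20% of all genes (10.3% higher and 9.75% lower). With library totals 2 were higher (Srsf5, U2af2) and 1 lower (Snrpa1), beside 15.4% of all genes (11.4% higher and 3.95% lower), with a median of -0.01, beside 0.14 over all genes. With the length trend removed only Snrpa1 was called, lower, beside 13.6% of all genes (7.49% higher and 6.16% lower). All 3 calls were lost when replicate 1 of CD115-Ly6C- or of CD115+Ly6C- was left out (edgeR adjusted p = 0.132 to 0.204). The 3 comparisons share libraries, so their values are not independent of each other.

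A list of 140 further splicing genes was read beside these, of which 135 were tested. In CD115-Ly6C- against CD115+Ly6C+, 17 were higher and 24 lower, 30.4% of the list beside 39.3% of all genes (20.1% higher and 19.2% lower), so the list held a smaller share of calls than all genes. With library totals these were 35 and 13, or 35.6% beside 41.4% of all genes. Of 9 minor spliceosome genes 0 were higher and 4 lower, and of 52 genes of snRNP and spliceosome proteins 4 were higher and 13 lower. Of 49 splicing regulators and SR kinases, 10 were higher and 1 lower. Lsm5, of the ring on U6 RNA, stood at 157 and 159 FPKM in CD115-Ly6C-, 291 and 266 FPKM in CD115+Ly6C+, and 186 and 210 FPKM in CD115+Ly6C-. Its log2 fold change was -1.01 (SE 0.12, edgeR adjusted p = 4.00e-04) in CD115-Ly6C- against CD115+Ly6C+. Ppih, a tri-snRNP cyclophilin, and Snrnp25, a minor spliceosome protein, followed with -0.89 and -0.93 (edgeR adjusted p = 6.59e-04 and 9.31e-04). The length trend is not removed from these values or from those on the higher side below. All genes under 1 kb had a median of -0.54 in this comparison, and genes over 4 kb one of 0.30. Of Lsm2 to Lsm8, picked out after their values were seen, 6 of 7 were lower, beside 19.2% of all genes, and nothing is read from a group picked in that way.

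On the higher side, Gemin4, of the SMN complex that loads Sm rings, stood at 27.6 and 26.8 FPKM in CD115-Ly6C-, 14.2 and 14.3 FPKM in CD115+Ly6C+, and 22.2 and 23.6 FPKM in CD115+Ly6C-. Gemin4's log2 fold change in CD115-Ly6C- against CD115+Ly6C+ was 0.74 (SE 0.11, edgeR adjusted p = 0.00122). Snrnp200, the U5 helicase that unwinds U4 from U6, had 0.54 (edgeR adjusted p = 0.00373), and Dhx9, an RNA helicase, had 1.33 (edgeR adjusted p = 0.00155). In CD115+Ly6C+ against CD115+Ly6C- the list had 2 higher (Lsm5, Rbm3) and 6 lower, 5.93% beside 9.6% of all genes. Gemin4 and Snrnp200 were among the lower, with log2 fold changes of -0.62 and -0.49 (edgeR adjusted p = 0.0143 and 0.0229). With CD115-Ly6C- set against CD115+Ly6C-, Clk1, a kinase of SR proteins, was higher, and 13 genes were lower, 10.4% of the list beside 15.2% of all genes, led by Lsm4 with -0.57 (edgeR adjusted p = 0.0165). Clk1 stood at 120 and 127 FPKM in CD115-Ly6C-, 88.2 and 82.7 FPKM in CD115+Ly6C+, and 76.7 and 83.8 FPKM in CD115+Ly6C-, with a log2 fold change of 0.50 (SE 0.11, edgeR adjusted p = 0.0221) against CD115+Ly6C-.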

How the data were processed

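RNA was measured in 6 libraries of flow-sorted progenitors, 2 from each of 3 subsets, grouped by their labels. The submitters' processing notes name Bowtie2, RSEM and the mm10 build. Their versions, the strand setting and the annotation are not given in the sources used. Per the file headers, the authors deposited an RSEM expected count and an FPKM for each gene. The expected counts are estimated, with 12.6% of them not whole numbers (tolerance 1e-06). Where a library's table does not list a gene, it was taken as 0.

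Expected counts were rounded and fitted with edgeR 4.0.16 (R 4.3.3), using glmQLFit and glmQLFTest on all 6 libraries with 1 coefficient per subset. Genes were kept by filterByExpr (minimum count 10, minimum total 15) and scaled by TMM. Benjamini-Hochberg adjustment ran over the 12127 genes kept, and 0.05 was the threshold. The biological coefficient of variation was 15.2%, with 3 residual degrees of freedom. The script was tested on simulated counts. DESeq2 1.42.0, limma 3.58.1 on log2(FPKM + 1) and log2(FPKM + 0.1), other scalings, no filter, a replicate block, removal of a length trend (lowess of log2 count on log2 length, span 0.3) and leaving out each library were alternatives. Counts and promoters were matched to RefSeq (GRCm38.p6) by Entrez identifier, and all 67 genes matched. Of these genes, 11 had fractional counts and 18 overlap a protein-coding gene. Besides the overlaps named above, Hnrnpll, Hnrnpd, Prpf38a, Prpf40b, Sf3b3 and Snrpf are called genes among the latter.

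The members and lists were chosen with earlier results of these data known. Values of 1 member are not reported here, though it stands in the counts. Named genes were, per comparison, up to 15 called members in each direction by adjusted p, the 4 most and the 1 least abundant of each family, the 5 largest and the 5 smallest fold changes of CD115-Ly6C- against CD115+Ly6C+, members at 0, and up to 5 other splicing genes in each direction. Marker lists covered common dendritic cell progenitors, late neutrophil granules, proliferation, and B, T and NK, erythroid and megakaryocyte cells. In the 6 libraries the B lineage list summed to 87.2 to 109 FPKM, the T and NK list to 1.35 to 3.57 FPKM, the erythroid list to 12.4 to 42.7 FPKM and the megakaryocyte list to 0.64 to 8.87 FPKM.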

Additional observations from a re-analysis of the deposited data

How the results depend on the processing

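Of the 38 calls of splicing genes, 38 were kept with RLE size factors, no filter and DESeq2, 36 with the 2 subsets alone, 25 with limma on FPKM, 24 with library totals and 14 with the length trend removed, which turned the sign of 3. Without 1 library, 19 to 31 were kept. In CD115-Ly6C- against CD115+Ly6C+, Hnrnpll, Hnrnpu, Snrpb2 and Srsf5 were called in every setting, and in the other comparisons no gene was. With 2 libraries a subset, each left-out library leaves 1 in its subset, which is assumed to vary like the others, and depth was not tested against the spread between libraries. The cause of the changes was not tested.

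Counts are given as higher and lower. Splicing genes in CD115+Ly6C+ against CD115+Ly6C- (4 and 0) were 1 and 2 with library totals, 13 and 1 with no filter, 13 and 2 with DESeq2 and 1 and 2 with limma at either pseudocount. In CD115-Ly6C- against CD115+Ly6C- (0 and 3) they were 2 and 1 with library totals, 2 and 6 with no filter, 0 and 6 with DESeq2, 3 and 1 with limma at a pseudocount of 1 and 2 and 1 at 0.1, with 1 lower after length removal and 0 with the replicate block as well. In CD115-Ly6C- against CD115+Ly6C+ (8 and 23) they were 14 and 14 with library totals, 15 and 15 with limma, and 5 and 9 after length removal, with or without the replicate block. Without 1 library these 6 counts ran from 0 to 3 and stayed at 0, from 0 to 1 and 0 to 2, and from 1 to 8 and 14 to 21.

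The other splicing genes, in the same order of comparisons, were 2 and 12, 4 and 3, and 35 and 13 with library totals, against 2 and 6, 1 and 13, and 17 and 24 with TMM. DESeq2 gave 8 and 10 in the first and 2 and 20 in the second. With no filter they were 5 and 10 in the first comparison, with 2 higher in the second. RLE size factors and the 2 subsets alone gave 4 higher in the first, and the 2 subsets alone 2 higher in the second. Limma at a pseudocount of 1 gave 5 and 6 in the second and 34 higher in the third, and at 0.1 it gave 1 higher, 3 and 5, and 33 higher. Length removal gave 0 and 3 in the first and 10 and 15 in the third, and with the replicate block 0 and 2, 4 lower in the second, and 9 and 13. Without 1 library they ran from 0 to 4 and 0 to 4, 0 to 3 and 0 to 11, and 7 to 16 and 13 to 22.

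All genes without 1 library ran from 105 to 648 and 115 to 491, 291 to 996 and 165 to 755, and 1483 to 2369 and 1486 to 2263. In the first comparison they were 986 and 824 with no filter, 1024 higher with DESeq2, and 405 and 306 after length removal (416 and 274 with the replicate block). In the second, 479 were lower with library totals and 546 and 530 with limma at pseudocounts of 1 and 0.1, and in the third 1518 with library totals.

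The median log2 fold change of the splicing genes was -0.0146 with library totals and -0.0102 with limma at either pseudocount in CD115-Ly6C- against CD115+Ly6C-, and in CD115-Ly6C- against CD115+Ly6C+ it was 0.16 in each of these. TMM-scaled FPKM of the splicing genes summed to 8625 for CD115-Ly6C-, 10196 for CD115+Ly6C+ and 9790 for CD115+Ly6C-, against 9278, 9602 and 9666 as deposited. After length removal in CD115-Ly6C- against CD115+Ly6C+, the log2 fold changes of U2af1, Snrpe, Snrpd3 and Snrpg were 0.0357, 0.0007, 0.51 and 0.12, and 0.0362, 0.0008, 0.51 and 0.12 with the replicate block.

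No label ties same-numbered libraries together, and they were not treated as pairs. Deviations of same-numbered libraries had correlations of 0.15 between CD115-Ly6C- and CD115+Ly6C+, -0.01 between CD115-Ly6C- and CD115+Ly6C-, and -0.004 between CD115+Ly6C+ and CD115+Ly6C- over all genes, and of 0.326, -0.035 and -0.135 over the splicing genes. With the replicate block, splicing genes called in the order above were 4 and 0, 0 and 2, and 8 and 21, and the other splicing genes had 3 and 7 lower in the first and second comparisons.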
